A study of Homo sapiens with 4 samples.

Results

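The endoplasmic reticulum (ER) chaperones and unfolded protein response genes described here are 10 genes taken by symbol from the 14416 genes of the table: the chaperones and folding factors HSPA5, HSP90B1, DNAJB9, PDIA4, CALR and CANX, the degradation factors SEL1L, EDEM1 and HERPUD1, and the transcription factor XBP1. All 10 were listed, and all 10 were among the 10564 genes that reached 1 FPKM in at least 1 input and are called tested genes below. The cells were OMM 2.3, a human uveal melanoma line labelled wild type, kept for 24 h with meclofenamic acid (MA), or with the solvent DMSO in the control (NC). Each condition had 1 input library, sequenced before immunoprecipitation, and 1 library of fragments bound by an antibody to N6-methyladenosine (m6A), called RIP. With 1 library per group there was no replicate check, so no p-value was computed, and every difference describes these libraries. FPKM, fragments or reads scaled to gene length and library total, puts genes and inputs on a common scale. Between inputs it still depends on the other RNA in each library, and differences under other scalings are given below. MA inhibits cyclooxygenases and also the m6A demethylase FTO.

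Proteins enter the ER unfolded, and HSPA5 (BiP), HSP90B1 (GRP94) and their partners fold them, while CANX and CALR hold glycoproteins until they have folded and PDIA4 forms disulfide bonds. Proteins that fail are passed by SEL1L, EDEM1 and HERPUD1 to ER-associated degradation. When unfolded proteins accumulate, the sensors IRE1, PERK and ATF6 start the unfolded protein response, in which IRE1 splices the XBP1 mRNA so that it encodes an active transcription factor. Active ATF6 and XBP1 bind the ER stress response element (ERSE) in the promoters of chaperone genes.

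The ERSE is shown because it is the textbook promoter element of this gene group. It was searched as CCAAT and CCACG separated by any 9 bases, on both strands, in the RefSeq promoter windows (GRCh38.p14) that run from 250 bases before to 50 bases after a gene's start. Of 27305 genes with a window, 25 (0.0916%) held it. They included 5 of the 10 genes, HSPA5, HSP90B1, CALR, CANX and XBP1. The related element ERSE-II, ATTGG and CCACG separated by any base, was in the windows of 19 genes (0.0696%), among them HERPUD1. The windows of DNAJB9, SEL1L, EDEM1 and PDIA4 held neither set of letters, and TGACGTGG, the core of a further element bound by XBP1, was in no window of the 10 genes and in those of 0.927% of all genes. In the sequences that follow, read 5′ to 3′ on the strand given, capitals mark the element.
HSPA5, chr9:125241386-125241414, minus strand: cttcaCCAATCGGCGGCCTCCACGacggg
HSP90B1, chr12:103930211-103930239, plus strand: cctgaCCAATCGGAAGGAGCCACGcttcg
HSP90B1, chr12:103930316-103930344, minus strand: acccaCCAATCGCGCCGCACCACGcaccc
CALR, chr19:12938379-12938407, minus strand: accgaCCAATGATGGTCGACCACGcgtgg
CANX, chr5:179698773-179698801, plus strand: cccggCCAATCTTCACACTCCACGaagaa
XBP1, chr22:28800598-28800626, minus strand: gctggCCAATCGCGGAGGGCCACGaccgt
HERPUD1 (ERSE-II), chr16:56932016-56932044, plus strand: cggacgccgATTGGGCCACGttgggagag
The element of HSPA5 and that of XBP1 lay on the strand of the gene, centred at -57 and -43 bases from the start. HSP90B1 held it in both directions, at -185 on its own strand and at -80 on the opposite strand. CALR held it on the opposite strand at -216. The 3 windows of CANX with the element, for different starts, share a single site, centred at -180 from the most downstream of these starts and lying across the most upstream one. A match of letters is a description of the sequence and no evidence of binding in these cells.

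The inputs differed most at DNAJB9, SEL1L and HSPA5, which were all higher by 2-fold or more with MA, and none of the 10 genes was lower by 2-fold or more. The other 7 ranged from HSP90B1 and CANX, each 1.57-fold higher with MA, to PDIA4, at 0.897 of its NC level. The share of tested genes at or beyond 2-fold was 10.3% for higher and 2.98% for lower with MA, on a scale of log2((MA FPKM + 1)/(NC FPKM + 1)) that understates differences of low genes. The median log2 difference of the 10 genes was 0.58, against 0.11 over all tested genes, and 8 of the 10 were above 0, against 56.7% of tested genes. Relative to the median tested gene the value of each of the 10 genes is lower by that 0.11, which puts CALR at -0.13 and PDIA4 at -0.27. Differences varied widely within both chaperones and degradation factors. The 6 chaperones went from -0.15 to 1.91 with a median of 0.65, and the 3 degradation factors from 0.12 to 1.32 with a median of 0.46. In bulk RNA, fewer cells expressing a gene and less RNA per cell cannot be told apart.

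**Figure D1:**
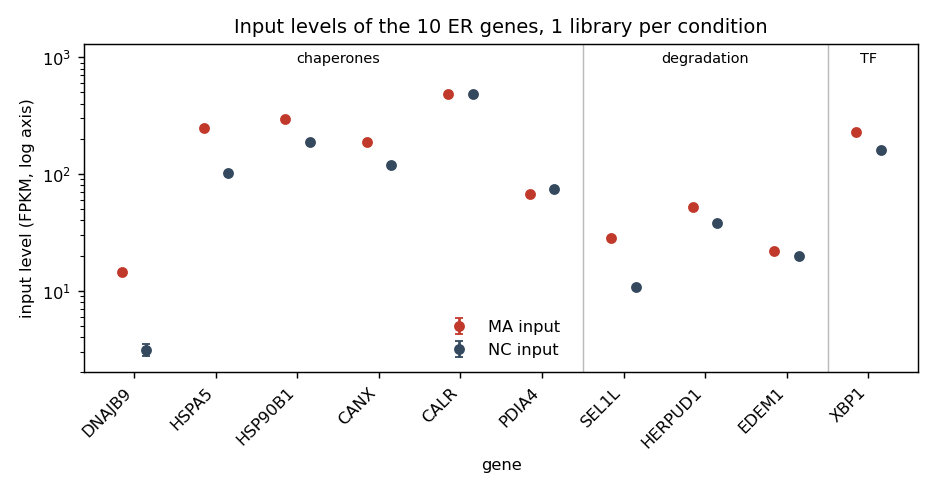
Input level of each gene in FPKM on a log axis, 1 point for MA and 1 for NC, with exact 95% Poisson intervals of the recovered reads (mostly smaller than the points). The pair of points is widest apart for DNAJB9, at 14.4 FPKM with MA against 3.09 with NC, and nearly level for CALR, at 480.0 and 486 FPKM.

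HSPA5, the Hsp70 of the ER that binds unfolded chains and holds the stress sensors inactive, had 248 FPKM with MA against 102 with NC. That is a log2 difference of 1.28, from 40553 recovered reads in MA and 14814 in NC. Without a pseudocount the log2 ratio was also 1.28 (exact 95% counting interval 1.26 to 1.31). The rank of HSPA5 among the 10 genes was 3 in MA and 5 in NC.

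DNAJB9, an ER J-domain cochaperone that directs HSPA5 to its clients and helps to silence IRE1, had the widest difference of the 10. Its level was 14.4 FPKM in MA, against 3.09 in NC, a log2 difference of 1.91, which is above 99.5% of tested genes. The ratio itself was 4.66-fold, or 2.22 on the log2 scale (2.04 to 2.41, 1447 reads in MA and 276 in NC). It was the lowest of the 10 genes in both inputs. On the scale of tested genes its level was above 60.5% of them in MA and above 23.2% in NC.

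HSP90B1, the Hsp90 of the ER, which folds integrins and Toll-like receptors, had 296 FPKM with MA against 188 with NC (log2 difference 0.65). CANX, the membrane-bound lectin chaperone, had 188 FPKM with MA against 119.6 with NC (0.65). Both differences were under 2-fold and far outside counting error, with intervals of 0.63 to 0.68 for HSP90B1 and 0.63 to 0.67 for CANX. CALR, the soluble lectin partner of CANX, had 480.0 FPKM with MA against 486 with NC (-0.02), and its counting interval of -0.04 to 0.0018 included no difference. PDIA4, a disulfide isomerase, had 67.2 FPKM with MA against 74.9 with NC (-0.15, interval -0.20 to -0.11). The lectin pair CANX and CALR thus stood at different sides of the median of all tested genes, 0.11. Both belong to the highest of 3 equal groups by level, and both were above the median of that group, -0.13.

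SEL1L, the adaptor that holds the ubiquitin ligase SYVN1 in the degradation complex, had 28.2 FPKM with MA against 10.7 with NC, a log2 difference of 1.32. Without a pseudocount the ratio was 2.63-fold, or 1.40 on the log2 scale (1.34 to 1.45, 10047 reads in MA and 3398 in NC). The other degradation factors were much closer between the inputs. HERPUD1, a membrane protein that gathers the degradation complex, had 52.3 FPKM with MA against 37.9 with NC (0.46, interval of the ratio 0.41 to 0.52). EDEM1, which carries misfolded glycoproteins from the calnexin cycle to degradation, had 21.7 FPKM with MA against 20.0 with NC (0.12, interval 0.07 to 0.17), near the median of all tested genes.

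XBP1 had 231 FPKM with MA against 162 with NC (0.51, interval 0.48 to 0.55). The value counts the spliced and unspliced forms of its mRNA together, so it gives no measure of IRE1 activity. The RefSeq table lists the pseudogenes HSPA5P1, HSP90B2P, HSP90B3P and XBP1P1. How the authors counted reads that fit a gene and its pseudogene is not given in the sources used here, and the values of these genes carry that uncertainty.

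**Figure D2:**
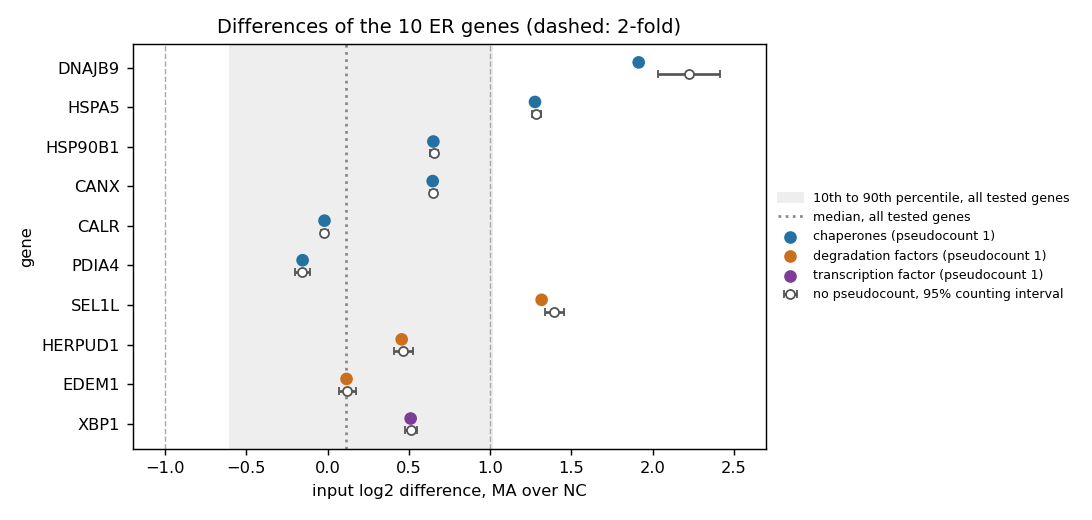
Input log2 difference of each gene, MA over NC. Filled points use a pseudocount of 1 and are coloured by role, open points have none and carry the 95% counting interval, and the grey band spans the 10th to 90th percentile of all tested genes (-0.60 to 1.01). DNAJB9, SEL1L and HSPA5 lie right of the dashed line at 2-fold, the other 7 genes between -0.15 and 0.65.

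The order of the levels was CALR, HSP90B1, HSPA5, XBP1, CANX, PDIA4, HERPUD1, SEL1L, EDEM1 and DNAJB9 in MA. In NC it was CALR, HSP90B1, XBP1, CANX, HSPA5, PDIA4, HERPUD1, EDEM1, SEL1L and DNAJB9. In neither input did the counting intervals of neighbours in the order overlap. The highest gene was 33.3 times the lowest in MA and 157 times in NC, since DNAJB9 was higher with MA while CALR was not.

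Both transcript length and level went with the share of tested genes called higher. Of 3 equal groups by recovered length, the shortest had 6.62% of genes higher by 2-fold or more, the middle 11.2% and the longest 13.0%. DNAJB9 (2409 bp) was in the shortest group, HSPA5 (3921 bp) in the middle group and SEL1L (8570 bp) in the longest. EDEM1, also in the longest group at 7053 bp, stayed near the median of all tested genes and below the median of 0.28 for that group. Of 3 equal groups by level, the highest had 5.34% of genes past that fold, the middle 12.6% and the lowest 12.9%. The median log2 difference was -0.13 in the highest group, 0.15 in the middle and 0.36 in the lowest. HSPA5 and SEL1L were in the highest group and DNAJB9 in the middle. Among genes both in the highest group by level and in the longest by length, as SEL1L is, 7.56% were called. The part of length in the members' differences was not tested.

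The 5 genes with an ERSE differed widely among themselves. HSPA5 had the largest log2 difference, at 1.28, HSP90B1, CANX and XBP1 were between 0.51 and 0.65, and CALR was at -0.02. DNAJB9 and SEL1L, higher by 2-fold or more, had no exact match to the ERSE in their windows, nor had PDIA4, whose difference was the lowest of the 10. Copies with a changed base, or outside the windows, were not searched. Over all genes with the element, 15 were tested, and 2 of these passed 2-fold with MA, HSPA5 and the thiol oxidase ERO1B (3.41 FPKM with MA against 0.913 with NC, log2 difference 1.21). Over all tested genes that share was 10.3%, and ERO1B was no longer called with a pseudocount of 5 and was left out by a filter at 5 FPKM. None of the 15 was lower by 2-fold or more. The 10 tested genes with an ERSE that are not among the 10 described had a median of 0.22, from -0.71 for the secreted ER protein CRELD2 to 1.21 for ERO1B. The genes CRELD2 and ALG12 share a single site, as do EIF2A and SERP1, and HSP90B1 holds 2, so that the 25 genes hold 24 sites in all.

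**Figure D3:**
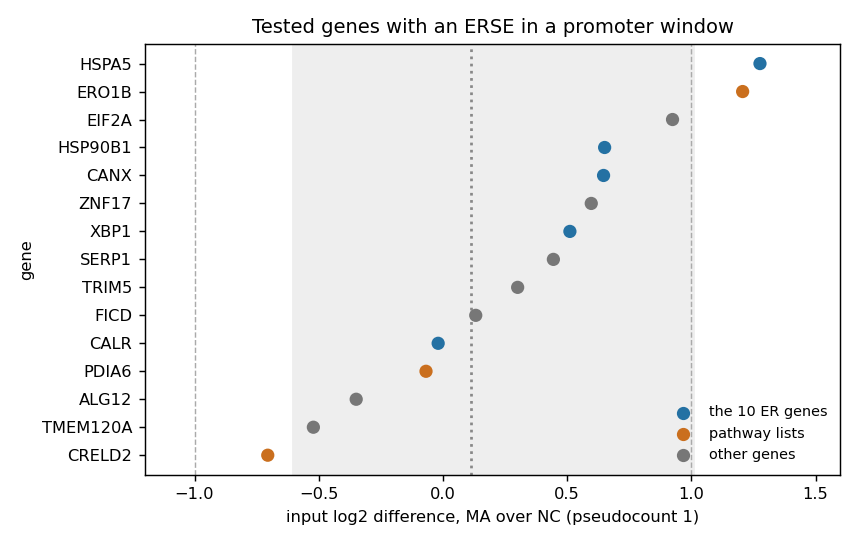
Input log2 difference, MA over NC with a pseudocount of 1, of the 15 tested genes with an ERSE in a promoter window. Blue points are among the 10 ER genes, orange ones in the pathway lists and grey ones other genes, and the grey band spans the 10th to 90th percentile of all tested genes. HSPA5 and ERO1B lie beyond the dashed line at 2-fold, and CRELD2 is lowest at -0.71.

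The other genes of the pathway, 47 in 5 lists, showed no common direction. All 47 were tested, 24 were above 0 and 23 below, with a median log2 difference of 0.10, close to that of all tested genes. By 2-fold or more, 3 were higher and 1 was lower, beside 10.3% and 2.98% of all tested genes. The count of 3 was 7 with a pseudocount of 0.1 or as TPM and 1 with a pseudocount of 5. Over all tested genes the count of 1087 was 1801 with a pseudocount of 0.1, 1842 as TPM and 273 with a pseudocount of 5. The sensors and their proteases had a median of 0.54 over 6 genes, 4 above 0 and 2 below. Of these, 1 was at 2-fold or more, against 2 with a pseudocount of 0.1 or as TPM and 0 with a pseudocount of 5. EIF2AK3, which encodes PERK, had 7.87 FPKM with MA against 2.17 with NC (1.48). MBTPS2, a protease that releases ATF6, had 15.5 FPKM with MA against 7.34 with NC (0.98). ERN1, which encodes IRE1, had 4.44 FPKM with MA against 2.35 with NC (0.70). The most highly expressed of the list were the ATF6 relative ATF6B (62.4 with MA against 87.8 with NC, -0.49) and MBTPS1, the other protease that releases ATF6 (26.0 with MA against 34.0 with NC, -0.37), both lower with MA by less than 2-fold.

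The cochaperones of HSPA5 and other folding factors had a median of 0.12 over 10 genes, 5 above 0 and 5 below, and none reached 2-fold on the scale with a pseudocount of 1, while 1 did with a pseudocount of 0.1 or as TPM. DNAJC10, a J-domain reductase, had 4.24 FPKM with MA against 1.77 with NC (0.92), SEC63, of the translocon, had 15.2 with MA against 8.27 with NC (0.81), and CRELD2 had 13.4 with MA against 22.5 with NC (-0.71). The differences of 3 further J-domain cochaperones, DNAJB11 (-0.32), DNAJC1 (0.52) and DNAJC3 (0.58), were also below the 1.91 of DNAJB9. HYOU1, an exchange factor of HSPA5, had 41.1 FPKM with MA against 32.6 with NC (0.32).

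Disulfide isomerases and oxidases had a median of -0.07 over 8 genes. The highly expressed isomerases P4HB (308 FPKM in MA, 337 in NC, -0.13), PDIA3 (127 in MA, 136 in NC, -0.09) and PDIA6 (91.5 in MA, 96.0 in NC, -0.07) were as close between the inputs as PDIA4. In the same list ERO1B was higher by 2-fold or more and ERO1A had 28.8 FPKM with MA against 15.7 with NC (0.83). TXNDC5, an isomerase, was the only one of the 47 genes lower by 2-fold or more, at 73.5 FPKM with MA against 172 with NC (-1.21).

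Enzymes of the calnexin cycle, which trim and reglucosylate the glycans that CANX and CALR bind, had a median of -0.39 over 6 genes, with 4 below 0. UGGT2, a glucosyltransferase that senses folding, had 6.91 FPKM with MA against 3.03 with NC (0.97). The glucosidase MOGS had 16.7 FPKM with MA against 28.1 with NC (-0.71), and the mannosidase MAN1B1 had 15.6 with MA against 23.4 with NC (-0.55).

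The degradation machinery had a median of 0.20 over 17 genes, with 10 above 0. UBXN4, which recruits the ATPase VCP to the ER, had 39.8 FPKM with MA against 15.6 with NC (1.30) and was the only one of the list at 2-fold or more with a pseudocount of 1, against 2 genes with a pseudocount of 0.1 or as TPM. VCP had 39.0 FPKM with MA against 65.2 with NC (-0.73), and DERL3, of the derlin family, had 3.11 with MA against 1.32 with NC (0.83). SYVN1, the ligase that SEL1L holds, had 23.0 FPKM with MA against 19.9 with NC (0.20), beside the log2 difference of 1.32 for SEL1L itself.

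**Figure D4:**
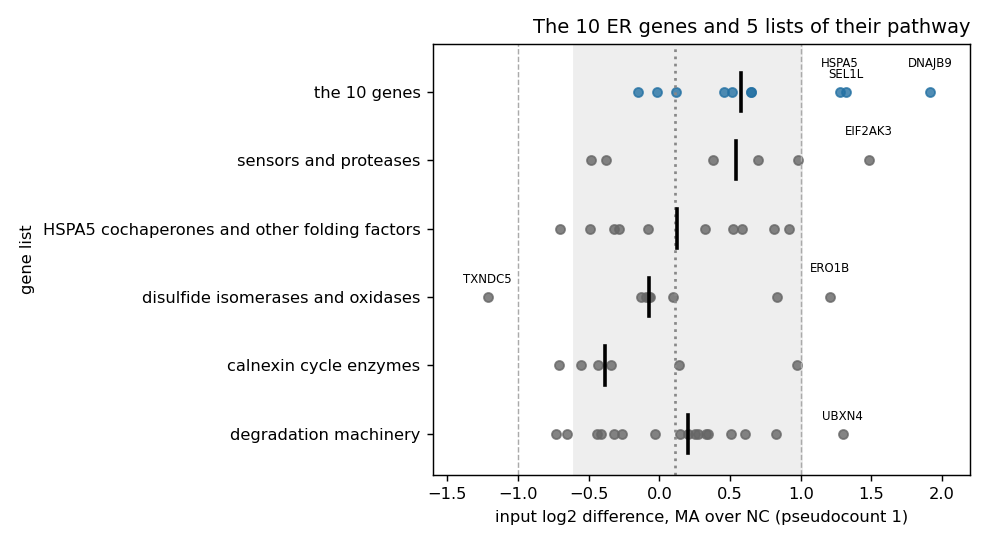
Input log2 difference, MA over NC with a pseudocount of 1, of the 10 ER genes (blue) and of 5 lists of their pathway (grey), 1 point per gene with the list median as a black bar. The medians run from 0.58 for the 10 genes to -0.39 for calnexin cycle enzymes, and the genes beyond the dashed lines at 2-fold are named.

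In the RIP, every one of the 10 genes had an m6A peak annotated to its 3' UTR in the MA list, and 9 of the 10 had one in the NC list, EDEM1 being the exception. Any peak was listed for 80.0% of tested genes in MA and 83.3% in NC, and a 3' UTR peak for 55.2% of tested genes in MA and for 57.1% in NC. Among the highest of 3 equal groups by level, to which 9 of the 10 belong, the shares were 71.0% in MA and 76.4% in NC for any peak and 45.2% in MA and 48.5% in NC for a 3' UTR peak. A 3' UTR peak in both lists was found for 9 of the 10 genes, for 47.7% of tested genes and for 40.6% of the highest group by level. All 9 genes with a 3' UTR peak in NC had one in MA, as did 83.6% of the tested genes with one in NC and 83.6% of those in the highest group by level. In all, the MA list held 16 peaks of the 10 genes and the NC list 14, out of 19929 and 22067 peaks. Of these, 13 in MA and 13 in NC overlapped a peak of the other list, beside 79.6% of all merged MA regions and 73.8% of all merged NC regions. Of the 10 genes, 6 had equal numbers of peaks in both lists.

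The fold enrichment of a peak, RIP over input, and its false discovery rate are the authors' values, and folds are ranked only within their own list. No listed peak was below a fold of 1.5. The bounds of a peak include introns where it spans several exons, and 4 of the 16 MA peaks and 4 of the 14 NC peaks lay within 1 exon. In both lists these were 3' UTR peaks of HSPA5, SEL1L, HERPUD1 and XBP1. The other 3' UTR peaks spanned more than 1 exon, as that of CALR in MA, with 878 exonic bp over 3787 bp. Their annotation therefore does not place the whole peak in the 3' UTR. Peaks of the 10 genes had folds of 1.74 to 4.0 in MA, where the median of the list was 3.07, and of 1.76 to 5.5 in NC, where it was 3.57. For 3' UTR peaks alone the median was 2.90 for the 10 genes in MA, against 3.21 over the list and 2.58 over 3' UTR peaks of genes in the highest group by level. In NC the corresponding values were 3.81 for the 10 genes, 3.78 over the list and 2.97 over the highest group by level.

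DNAJB9 had the highest fold of the 10 genes in NC and shared the highest with a SEL1L peak in MA. Its single 3' UTR peak (GRCh38.p13, chromosome 7, 108571831 to 108573523 in MA and to 108573425 in NC) had a fold of 4.0 in MA, above 68.6% of the MA list. In NC the fold was 5.5, above 77.7% of that list. HSPA5 had a single 3' UTR peak on chromosome 9, at 125236391 to 125237136 in MA and 125236292 to 125237136 in NC, with folds of 2.62 in MA and 3.55 in NC. Both genes were higher in the MA input, and in both the peak was present in both lists.

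HSP90B1 had 3 peaks in each list, in the 5' UTR, an exon and the 3' UTR. The 3' UTR peak had the same bounds in both (chromosome 12, 103943112 to 103947678), with folds of 2.48 in MA and 2.79 in NC. Its 5' UTR peaks had folds of 1.89 in MA and 2.54 in NC. CALR had 1 peak in each list, of 878 exonic bp in MA and 586 in NC, with folds of 3.18 in MA and 4.15 in NC. PDIA4 had a 3' UTR peak in both lists, with folds of 2.51 in MA and 4.07 in NC. PDIA4 also had an exon peak in MA without a partner in NC (chromosome 7, 149012165 to 149014985, fold 1.74, above 6.66% of the MA list). CANX had a 3' UTR peak in both lists, with folds of 2.64 in MA and 2.95 in NC. It further had an exon peak in NC without a partner in MA (chromosome 5, 179715989 to 179720485, fold 1.76, above 5.28% of the NC list).

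SEL1L had 4 peaks in MA, the most of the 10 genes there, and 3 in NC, as many as HSP90B1. Its 2 peaks in the 3' UTR had folds of 2.90 and 2.96 in MA and of 4.08 and 4.37 in NC, and its exon peak folds of 3.10 in MA and 2.68 in NC. The peak at the start codon was in the MA list without a partner in NC (chromosome 14, 81527718 to 81533853, 200.0 exonic bp, fold 4.0, false discovery rate 1.62e-08). The input reads over SEL1L were 10047 in MA and 3398 in NC, and their part in the detection of that peak was not tested.

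EDEM1 was the only one of the 10 genes with a peak in a single list. The peak, annotated to the 3' UTR, was in MA (chromosome 3, 5211185 to 5215940, 348 exonic bp) with a fold of 1.98, above 13.9% of the MA list. Among tested genes 4.04% had peaks in the MA list only and 7.29% in the NC list only, and in the highest group by level the shares were 3.32% in MA only and 8.69% in NC only. The input reads over EDEM1 were 6378 in MA and 5215 in NC, and their part in the detection of the EDEM1 peak was not tested. HERPUD1 had a 3' UTR peak from the same start in both lists (chromosome 16, 56943143), with folds of 3.03 in MA and 3.23 in NC, and its false discovery rate of 1.26e-16 in MA was the lowest of all peaks of the 10 genes.

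XBP1 had a single 3' UTR peak with identical bounds in both lists (chromosome 22, 28795100 to 28795689, 590.0 exonic bp), and its folds were 2.96 in MA and 3.21 in NC. Of the 4 peaks without a partner, the 3 in EDEM1, PDIA4 and CANX had folds under 2, and the fourth was that at the SEL1L start codon.

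**Figure D5:**
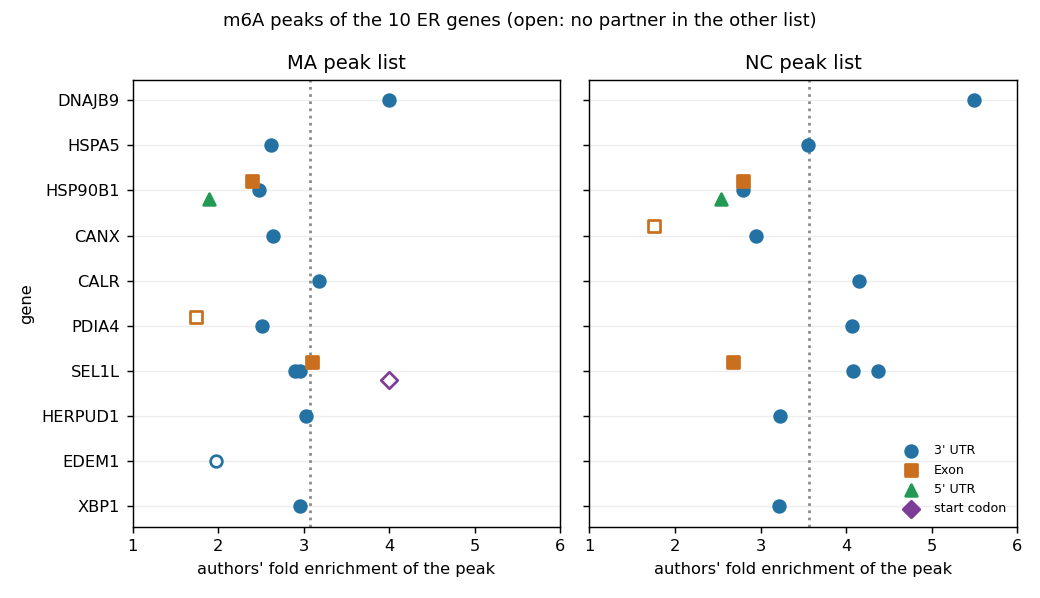
Fold enrichment of each m6A peak of the 10 genes, as the authors give it, in the MA list (left) and the NC list (right). Symbols mark the annotated feature, open symbols are peaks without a partner in the other list, and the dotted line is the median of the list, 3.07 in MA and 3.57 in NC. Each gene has a 3' UTR peak in both panels except EDEM1, which has one in MA.

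The recovered totals behind the per-million scale were 41630895 in MA and 37041597 in NC, and the depth of the RIP libraries is unknown. All 7 melanocyte lineage markers checked (MITF, SOX10, PMEL, MLANA, TYR, TYRP1 and DCT) were expressed, from 34.8 to 1327 FPKM in MA and from 55.9 to 4027 FPKM in NC. They summed to 3172 FPKM in MA and 7307 in NC, with 4 of the 7 lower by 2-fold or more, and their part in the differences above was not tested. Of 4 fibroblast, 3 immune, 2 endothelial and 2 epithelial markers, LUM (12.0 FPKM in MA, 4.96 in NC) and CD68 (89.9 in MA, 111 in NC) reached 1 FPKM.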

How the data were processed

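The authors deposited FPKM values for both inputs and a peak list for each RIP, per the file headers. Fold enrichment (a ratio of RIP to input), p-value and FDR of each peak are the authors' deposited values. Trimmomatic, HISAT, HISAT2, ChIPseeker, deepTools and the build GRCh38.p13 are named in the submitters' processing notes. The read counter and the peak caller go unnamed there and in the file headers. The RNA was poly(A) selected before fragmentation, per the labels' protocols, and the labels do not say how cultures were divided.

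Whole reads and lengths were recovered as the smallest that fit both FPKM values. A fit was found for 13052 of 13055 genes above 0 in both inputs (99.977%), and for 0.8% of 1000 genes once values were moved slightly. The smallest fit can be a whole fraction of the true reads and length, so the percentage does not measure accuracy. Read numbers, counting intervals and groups by length carry that uncertainty. The method was tested on simulated data. Intervals are exact binomial or Poisson 95% intervals of these reads and cover counting error only, since PCR reads are not independent molecules. Genes reaching 1 FPKM in either input are called tested, and for these only the size of the difference was taken, with a pseudocount of 1; list filters were also tried without a minimum and at 5 FPKM. Rows repeating a peak were counted once (99 in MA, 132 in NC), starts were raised by 1, and peaks were shared at 1 bp of overlap of their spans, introns included. The members, lists and alternatives were chosen with earlier results of these data known, and the promoter search was added after the data were seen. All members were named, and of each list the 3 genes with the largest absolute differences and any at 2-fold; others were chosen after their values were seen. Python 3.11.15, pandas 2.3.3 and scipy 1.17.1 were used.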

Additional observations from a re-analysis of the deposited data

How the results depend on the processing

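DNAJB9, SEL1L and HSPA5 were higher by 2-fold or more under a pseudocount of 0.1 or 5, after rescaling to a median difference of 0 and as TPM, and the other 7 genes were under 2-fold in each. CALR alone changed sign, to 0.06 as TPM. The DNAJB9 difference ranged from 1.26 (pseudocount 5) to 2.19 (0.1). EDEM1 was at 0.0047 with the median tested gene at 0. The median of the 10 genes was 0.47 with the median gene at 0 and 0.66 as TPM. The median of the 47 pathway genes was -0.016 with the median gene at 0 and -0.068 among genes at 5 FPKM or more, and 7 of them were higher by 2-fold with a pseudocount of 0.1, 7 as TPM and 1 with a pseudocount of 5. Over all tested genes, 1801 were higher with a pseudocount of 0.1, 1842 as TPM and 273 with a pseudocount of 5, against 1087, and 154 were lower with a pseudocount of 5, against 315. For TPM, the minimum of 1 and the pseudocount of 1 were applied to the TPM values, so the genes tested can differ from those at 1 FPKM. The change of scale by itself adds 0.077 to a log2 ratio of MA over NC, while the largest shift among the 10 genes as TPM was 0.25. The pseudocount of 1 therefore weighs differently on the TPM scale, and the TPM counts do not show an effect of scale alone. Peaks of the 10 genes at a fold of 3 or more numbered 5 in MA and 8 in NC, and at a fold of 2 or more 13 in each. The median fold of the whole list was 3.07 in MA and 3.57 in NC, so these counts are not compared between the lists. Overlap of 50% of both spans left 12 shared regions in each list. Overlap by exonic blocks was not run, since the lists give no blocks. No paired analysis was possible because each condition had 1 library, and for the same reason no library could be left out. Among the 10 genes the fewest input reads were the 276 of DNAJB9 in NC, and the depth behind the peaks is unknown. The shifts between settings follow from the changed pseudocount, minimum and scale, and the part of each in the TPM counts was not tested.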

Other observations

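The m6A peaks of the other pathway genes were not described above. Of the 47 genes, 39 had a peak in the MA list and 44 in the NC list, and all 39 were among the 44. The shares of tested genes with a peak were 80.0% in MA and 83.3% in NC, and 4.04% had peaks in MA only and 7.29% in NC only. The 5 with a peak in NC only were ATF6B, a relative of ATF6, the folding enzymes ERO1B and PDIA5, and SELENOS and VCP of the degradation machinery. Of these 5, ERO1B had 3.41 FPKM with MA against 0.913 with NC, and VCP had 39.0 with MA against 65.2 with NC. The part of input level in the detection of these peaks was not tested. AUP1, CRELD2 and DERL3 had no peak in either list. In the 5 lists together, 70 peaks were listed in MA and 78 in NC, out of 19929 peaks in MA and 22067 in NC.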
